A study of Homo sapiens with 6 samples.

Results

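The collagen genes were taken as all genes whose symbol consists of COL, a number, A and a number, and that rule took 38 of the 14232 genes that at least 1 probe set measures alone. Each of the 38 had 1 probe set paired with it alone, so no choice among probe sets was needed. Of 44 collagen genes listed by structural class, the other 6 were not analysed: COL7A1, COL18A1 and COL27A1 were paired only with probe sets that also carry a second gene, and COL6A6, COL17A1 and COL28A1 were not analysed here. Signals are log2 values, so a difference of 1 is a doubling. They depend on each probe set's binding, so collagen genes were not ranked against each other by level, and the places of marker genes and dim probe sets among all probe sets given below are rough.

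The arrays hold RNA of MO3.13, called an oligodendroglioma cell line in the labels and also known as a hybrid of oligodendrocytes with a rhabdomyosarcoma line. The growth medium of both groups held 10% fetal bovine serum. The 3 control arrays came from cells in DMEM with that serum. The 3 treated arrays came from the same line, given recombinant mouse Klotho at 0.4 µg/mL for 3.5 h in DMEM without serum. Klotho is an ageing-related co-receptor for hormones of the FGF family, and signalling pathways are what the title says was examined. Serum-free medium is named for the treated group alone, so Klotho and serum withdrawal cannot be told apart. Whether the 3 samples per group were grown as separate cultures is not given, and the spread behind each p-value may therefore be technical.

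Collagens are built from chains that wind around each other in threes to form a triple helix, which requires small glycine residues at regular steps along the chain. Fibrillar collagens form the ropes of connective tissue, type IV collagen forms the sheet of basement membranes, and the remaining classes coat, link or anchor these structures or sit in the cell membrane. Chains are hydroxylated and folded in the endoplasmic reticulum, exported in large carriers, trimmed outside the cell and crosslinked. In the nervous system collagens are found mainly in basement membranes of vessels and in the meninges, and oligodendrocytes are not known as a major source of fibrillar collagen.

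The type IV genes lie in the genome as head-to-head pairs, COL4A1 with COL4A2, COL4A3 with COL4A4 and COL4A5 with COL4A6, each pair transcribed outward from a stretch between their starts. These stretches are shown because the members of the first pair, described below, had nearly the same profile across the 6 arrays. That likeness was picked out after the values were seen, and members of the other pairs were less alike. Windows for 26 of the 38 members were at hand, taken from RefSeq on GRCh38.p14. The starts are 126 bases apart for COL4A1 and COL4A2, and 418 for COL4A3 and the 1 start of COL4A4 at hand. Transcripts of COL4A4 also reach past that start, which leaves 135 bases before COL4A3 outside both genes. For COL4A5 and the nearer of 2 starts of COL4A6 the distance is 379. All are written from the plus strand, so that COL4A2, COL4A3 and COL4A5 begin just after the right end. The first is the whole stretch between the starts (chr13:110307158-110307283), the second the part outside any transcript of either gene (chr2:227164489-227164623), and the third the 250 bases before COL4A5 (chrX:108439588-108439837). Capitals mark CCAAT (known as the CCAAT box), GGGCGG (a GC box) and TATAAA (the letters of a TATA box) on either strand, none of which overlap here.
COL4A1-COL4A2: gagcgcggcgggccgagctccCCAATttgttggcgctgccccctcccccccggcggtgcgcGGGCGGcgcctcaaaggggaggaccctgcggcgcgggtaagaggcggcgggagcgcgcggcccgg
COL4A4-COL4A3: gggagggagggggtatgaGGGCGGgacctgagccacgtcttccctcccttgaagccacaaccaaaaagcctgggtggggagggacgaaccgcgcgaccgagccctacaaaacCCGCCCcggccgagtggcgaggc
COL4A6-COL4A5: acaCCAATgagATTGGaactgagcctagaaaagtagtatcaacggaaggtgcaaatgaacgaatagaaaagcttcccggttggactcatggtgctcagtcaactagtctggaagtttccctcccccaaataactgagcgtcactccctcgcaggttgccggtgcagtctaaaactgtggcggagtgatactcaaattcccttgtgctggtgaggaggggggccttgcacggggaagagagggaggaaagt
The COL4A1-COL4A2 stretch holds 1 CCAAT and 1 GGGCGG, letters found in 21.1% and 34.5% of the 126 bases before 34943 RefSeq starts. The COL4A4-COL4A3 stretch holds 2 GGGCGG and no CCAAT. At least 1 copy on either strand was in 35.5% and 22.1% of windows of its length. The stretch before COL4A5 holds 2 CCAAT in opposite directions and no GGGCGG. At least 1 copy was in 32% and 42.5% of 250-base windows. Windows with 2 copies were not counted. TATAAA was in none of the 3, against 5.88%, 6.14% and 10.8% of windows of those lengths. A match describes letters only and does not show that a factor binds.

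The arrays were alike, with correlations of 0.985 to 0.991 across probe sets and medians of 6.36 to 6.47. The first principal component of the whole table (33.8% of the variance) set control array 1 (score 32.8) and treated array 3 (18.4) on one side and the other 4 arrays (-26.3 to -3.05) on the other. Of 10 measured oligodendrocyte markers, CNP and CLDN11 alone lay above the median signal of all probe sets, and MOG and OPALIN lay below the lower quartile (4.70). The median mean signal of these 10 markers was 5.72. Of 12 skeletal muscle markers 9 lay above that median, of 10 fibroblast markers other than collagens 7, and of 8 astrocyte markers 1. The log2 of the summed fibroblast marker signal was 12.3 on every control array and 12.2 to 12.3 on the treated arrays, with FAP, DCN and TCF21 below the lower quartile. Muscle markers summed to 12.8 to 12.9 and 12.8, oligodendrocyte markers to 9.80 to 9.86 and 9.78 to 9.94, and astrocyte markers to 8.41 to 8.50 and 8.34 to 8.40. These sums add unlogged signals and so follow mainly the brightest probe sets. Examples are VIM among the fibroblast markers (control mean 11.5) and CHRNA1 among the muscle markers (11.7). Among these markers the groups did not overlap for the muscle genes DES (-0.27) and CDH15 (-0.16) and the fibroblast gene PRRX1 (-0.15), all lower in treated cells, as for 5.3% of all genes. DES and PRRX1 overlapped under each of 3 other scalings of the arrays (quantile normalization, cyclic loess and median centring), and CDH15 under quantile normalization and cyclic loess. With median centring CDH15 alone stayed on the lower side (2.14% of all genes). On the higher side (4.88%) stood the fibroblast genes VIM (0.05) and TCF21 (0.18) and the astrocyte gene SLC1A2 (0.18). SLC1A2, like TCF21, lay below the lower quartile. The part of these markers in the collagen values was not tested.

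No collagen gene passed the test between treated and control cells. With limma, 0 of 38 had an adjusted p under 0.05, against 0% of all 22011 probe sets, and every member's adjusted p was 0.998 or more. None of the 38 reached an unadjusted limma p under 0.05 either, which 2.07% of all genes did. COL11A1 ranked first in the family by p as deposited, while COL6A5 did with quantile normalization and with median centring, and COL8A1 with cyclic loess. In bulk RNA, fewer cells that express a gene and less RNA per cell cannot be told apart.

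Treated cells gave the lower mean for 25 of the 38 collagens (65.8%), beside 62.6% of all genes, and the median difference was -0.04 beside -0.03 for all genes. The direction moved with the scaling of the arrays: 20 were lower with quantile normalization (46.8% of all genes), 22 with cyclic loess (50.3%) and 18 with each array centred on its median (42.7%), where the median of the collagens became 0.01. Without treated array 3 the median of the collagens was -0.0091 with 20 members lower, and without control array 2 it was -0.022. The share of all genes lower was not counted for these omissions. In every one of these 4 scalings the family's median lay within 0.01 of that of all genes. Differences ran from -0.29 for COL2A1 to 0.18 for COL4A5. They were within 0.1 of 0 for 27 members and beyond 0.2 for 4, all of them fibrillar and lower in treated cells. Shares of all genes within these limits were not counted. The 95% interval stayed within a 1.5-fold change for 36 members (94.7%), beside 91.7% of all genes. The exceptions were COL2A1 and COL1A2, and all 38 stayed within a 2-fold change, beside 98.7% of all genes. For the 7 members below the lower quartile of signal, an interval on the dim signal may say little about the RNA itself.

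**Figure D1:**
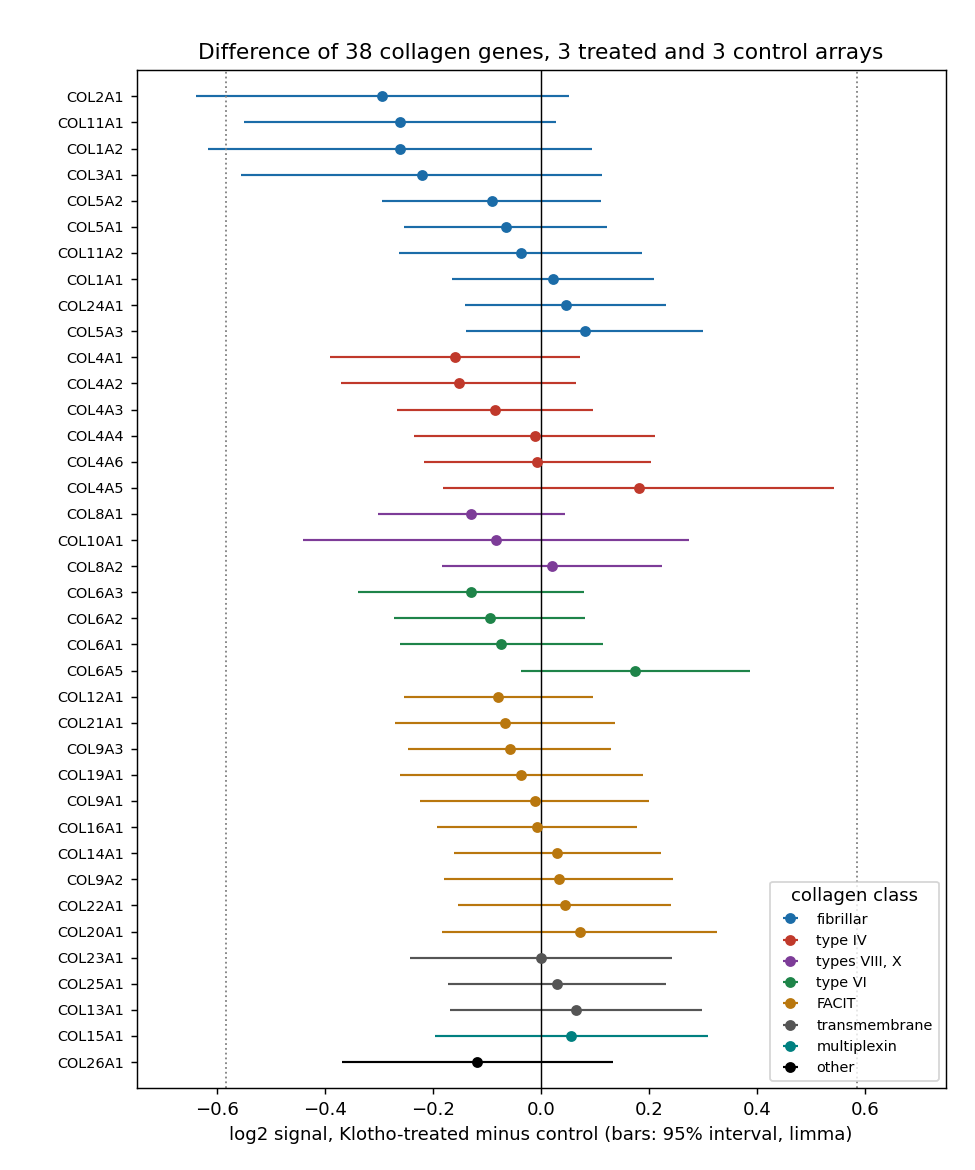
Difference in log2 signal between Klotho-treated and control cells (x axis) for the 38 collagen genes (y axis), coloured by structural class, with 95% limma intervals from 3 arrays per group; dotted lines mark a 1.5-fold change. Every interval includes 0, and the points lie between -0.29 (COL2A1) and 0.18 (COL4A5).

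Treated and control arrays did not overlap for 5 members with lower treated values, COL4A1, COL4A2, COL6A2, COL8A1 and COL12A1 (13.2% of 38, beside 5.3% of all genes), and for COL6A5 with higher treated values (2.63%, beside 2.59%). With quantile normalization COL4A2, COL8A1 and COL12A1 were left on the lower side (2.71% of all genes), with cyclic loess COL4A2, COL4A3 and COL8A1 (3.27%), and with median centring COL4A2 alone (2.14%). On the higher side COL14A1 stood without overlap under all 3 of these scalings. COL6A5 stood there as well with median centring (4.88% of all genes) and cyclic loess (3.38%), and not with quantile normalization (3.46%).

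Among the 10 measured fibrillar collagens 7 were lower in treated cells, with a median of -0.08 (7, 7 and 6 lower with quantile normalization, cyclic loess and median centring; medians -0.04, -0.03 and -0.03), and none passed. COL1A2, the alpha-2 chain of type I collagen of bone, skin and tendon, read 9.57, 10.12 and 9.88 on the control arrays and 9.53, 9.67 and 9.58 on the treated arrays. Control array 2 was the highest, and control array 1 lay among the treated values. The difference was -0.26 (95% interval -0.62 to 0.09).

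COL3A1, the single chain of type III collagen, which runs with type I in extensible tissues, read 8.34, 8.85 and 8.59 in control and 8.33, 8.45 and 8.34 in treated cells. COL2A1, the chain of cartilage collagen type II, read 7.45, 7.95 and 7.64 and then 7.28, 7.52 and 7.35. For both, control array 2 was again highest, control array 3 next and treated array 1 lowest. The differences were -0.22 (95% interval -0.56 to 0.11) for COL3A1 and -0.29 (-0.64 to 0.05) for COL2A1.

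COL1A2, COL3A1 and COL2A1 had nearly the same profile. Relative to each gene's own mean over the 6 arrays, control array 2 stood at 0.40, 0.37 and 0.41. Control array 3 stood at 0.15, 0.10 and 0.11, and control array 1 at -0.16, -0.14 and -0.08. The treated arrays stood between -0.25 and -0.01 for all 3 genes. COL3A1 and COL2A1 ranked the 6 arrays identically, and COL1A2 differed only in the order of control array 1 and treated array 3. These genes also had the widest spread among the controls, with SDs of 0.28, 0.26 and 0.25 (n = 3) against a median of 0.08 over the 38 members. Their likeness was picked out after the values were seen.

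The size of the difference of these 3 genes moved with the control array left out, and it stayed below 0. Without control array 2 it was -0.13 for COL1A2, -0.09 for COL3A1 and -0.16 for COL2A1. Without control array 1 it was -0.41, -0.35 and -0.41, and none passed (limma adjusted p = 1.00). COL1A1, whose alpha-1 chain assembles with that of COL1A2, did not share the profile: it read 6.67, 6.68 and 6.64 in control and 6.73, 6.74 and 6.60 in treated cells. Its difference was 0.02 (95% interval -0.17 to 0.21), and whether it differs from that of COL1A2 was not tested.

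COL11A1, a chain of the thin type XI fibrils that seed cartilage fibres, read 6.55, 6.83 and 6.68 in control and 6.30, 6.36 and 6.61 in treated cells. Treated arrays 1 and 2 lay below all controls, while treated array 3 fell among them. The difference was -0.26 (95% interval -0.55 to 0.03). Without treated array 3 it was -0.36 (limma adjusted p = 0.842), and with control array 1 left out as well -0.43 (limma adjusted p = 0.924). The chains of type V collagen, which set the diameter of type I fibrils, gave -0.07 for COL5A1, -0.09 for COL5A2 and 0.08 for COL5A3. COL11A2 (-0.04) and COL24A1 (0.05, on a dim probe set), a fibrillar collagen of developing bone, completed the class.

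**Figure D2:**
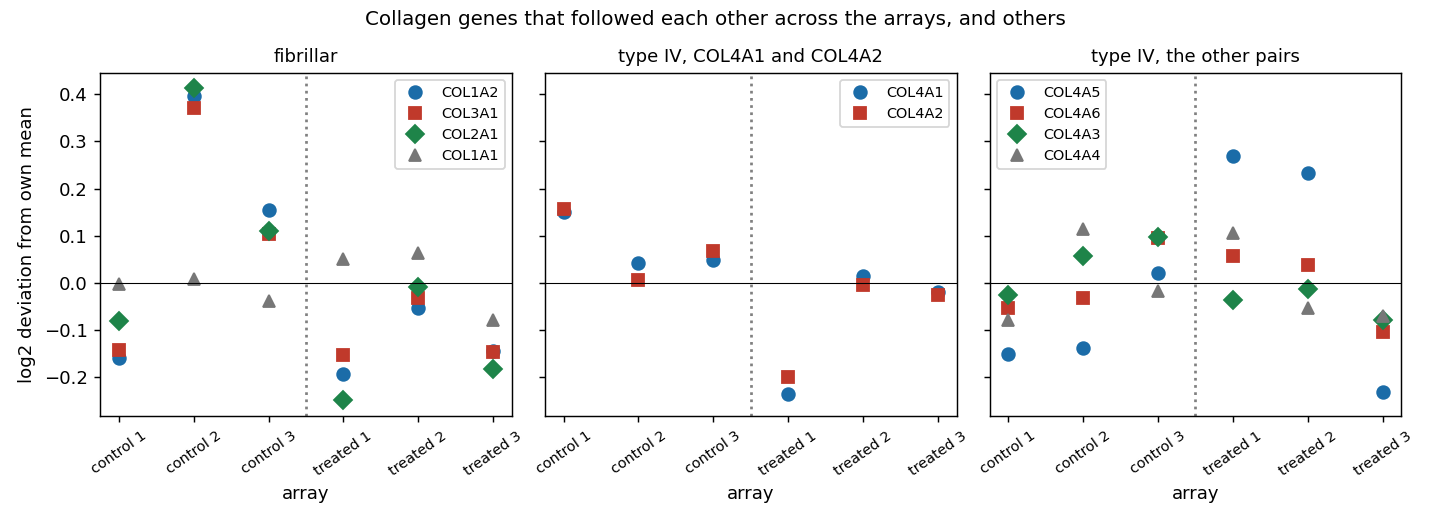
Deviation of each gene's log2 signal from its own mean over the 6 arrays (y axis), by array (x axis; arrays within a group have no order), 1 point per array. COL1A2, COL3A1 and COL2A1 lie together, highest on control array 2 (0.37 to 0.41), and COL1A1 does not follow them; COL4A1 and COL4A2 lie together, lowest on treated array 1 (-0.24 and -0.20).

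Type IV collagen gave 5 of 6 members lower in treated cells as deposited and with cyclic loess, 4 with quantile normalization and 3 with median centring, where the median turned from -0.05 to 0.00. COL4A1 and COL4A2 encode the chains found in nearly all basement membranes. COL4A1 read 8.32, 8.21 and 8.21 in control and 7.93, 8.18 and 8.15 in treated cells, a difference of -0.16 (95% interval -0.39 to 0.07). COL4A2 read 8.39, 8.24 and 8.30 and then 8.04, 8.23 and 8.21, a difference of -0.15 (-0.37 to 0.07). Control array 1 was highest and treated array 1 lowest for both, and every treated array lay below every control. Their deviations from their own means differed by little on any array: 0.15 and 0.16 on control array 1, 0.04 and 0.01 on control array 2, and 0.05 and 0.07 on control array 3. On the treated arrays they were -0.24 and -0.20, 0.01 and 0.00, and -0.02 and -0.03. Without treated array 1 the differences were -0.08 and -0.09.

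Members of the other head-to-head pairs were less alike. COL4A5, mutated in the kidney disease Alport syndrome, read 7.24, 7.25 and 7.41 in control and 7.66, 7.62 and 7.16 in treated cells. Treated arrays 1 and 2 lay above the controls and treated array 3 below them. The difference was 0.18 (95% interval -0.18 to 0.54), and it was 0.34 without treated array 3 (limma adjusted p = 0.842) and 0.09 without treated array 1. Its partner COL4A6 differed by -0.01 (-0.22 to 0.20), and by more than 0 with quantile normalization and median centring. COL4A6 shared the low value on treated array 3 (-0.10 from its mean) and stood at 0.06 and 0.04 on treated arrays 1 and 2, where COL4A5 stood at 0.27 and 0.23. On the control arrays COL4A5 stood at -0.15, -0.14 and 0.02, and COL4A6 at -0.05, -0.03 and 0.10. Both genes thus lay on the same side of their own mean on every array, by unlike amounts. COL4A3 and COL4A4, which join COL4A5 in the kidney filter, differed by -0.09 and -0.01. COL4A3 was highest on control array 3 and COL4A4 on control array 2, and the COL4A3 probe set was below the lower quartile.

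Type VI collagen forms beaded filaments around muscle fibres and many other cells, and defects in it cause congenital muscular dystrophy. Its main chains, COL6A1, COL6A2 and COL6A3, were all lower in treated cells under every scaling, and none passed. Of all genes, 62.6% were lower as deposited, and 46.8%, 50.3% and 42.7% with quantile normalization, cyclic loess and median centring. With quantile normalization COL6A1 gave -0.01, COL6A2 -0.03 and COL6A3 -0.11. COL6A1 read 8.35, 8.43 and 8.48 in control and 8.34, 8.40 and 8.29 in treated cells, with overlapping groups and a difference of -0.07. COL6A2, encoded beside it, read 7.76, 7.77 and 7.84 and then 7.72, 7.73 and 7.65. The treated arrays lay just below the controls, with a difference of -0.10 (95% interval -0.27 to 0.08) that was -0.03 with quantile normalization. COL6A3, the longest of these chains, gave -0.13 (-0.34 to 0.08) with overlapping groups. COL6A5, a later-described chain found in skin, had a dim probe set that read 3.08, 3.15 and 3.17 in control and 3.34, 3.41 and 3.18 in treated cells. Its difference was 0.17 (95% interval -0.04 to 0.39), and control array 3 and treated array 3 were 0.01 apart.

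The short-chain network collagens build hexagonal lattices. COL8A1, of vessel walls and the cornea, read 3.71, 3.76 and 3.70 in control and 3.60, 3.62 and 3.55 in treated cells, a difference of -0.13 (95% interval -0.30 to 0.04) on a dim probe set. COL8A2 differed by 0.02. COL10A1, of hypertrophic cartilage and also dim, read 3.78, 3.72 and 3.76 in control and 4.004, 3.52 and 3.49 in treated cells. Treated array 1 lay above the controls and the other treated arrays below them. The difference of -0.08 became -0.25 without treated array 1 (limma adjusted p = 1.00) and 0.01 without treated array 3.

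The 10 fibril-associated collagens, which lie on the surface of fibrils, were 6 lower and 4 higher in treated cells as deposited, with a median of -0.01. With quantile normalization and median centring 3 were lower, and with cyclic loess 4, with medians of 0.02, 0.04 and 0.02. COL12A1, a partner of type I fibrils, read 5.25, 5.20 and 5.20 in control and 5.09, 5.14 and 5.18 in treated cells. These groups were 0.02 apart at their nearest, and the difference was -0.08 (95% interval -0.25 to 0.10). The cartilage chains COL9A1, COL9A2 and COL9A3 gave -0.01, 0.03 and -0.06. COL14A1 (0.03), COL16A1 (-0.01), COL19A1 (-0.04), COL20A1 (0.07), COL21A1 (-0.07) and COL22A1 (0.04), the last a collagen of the muscle-tendon junction, lay within 0.1 of 0, and the COL21A1 probe set was dim.

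Among the transmembrane collagens, COL13A1, which acts at the neuromuscular junction, read 5.60, 5.77 and 5.80 in control and 5.91, 5.70 and 5.76 in treated cells, a difference of 0.06. COL25A1, a neuronal collagen whose shed part is found in amyloid plaques, gave 0.03 and COL23A1 0.00, with overlapping groups for all 3. COL15A1, of the basement membrane zone of muscle and vessels, gave 0.06 on a dim probe set, and COL26A1 -0.12 (95% interval -0.37 to 0.13), with treated array 3 the lowest at 7.71 and control array 3 the highest at 8.10.

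**Figure D3:**
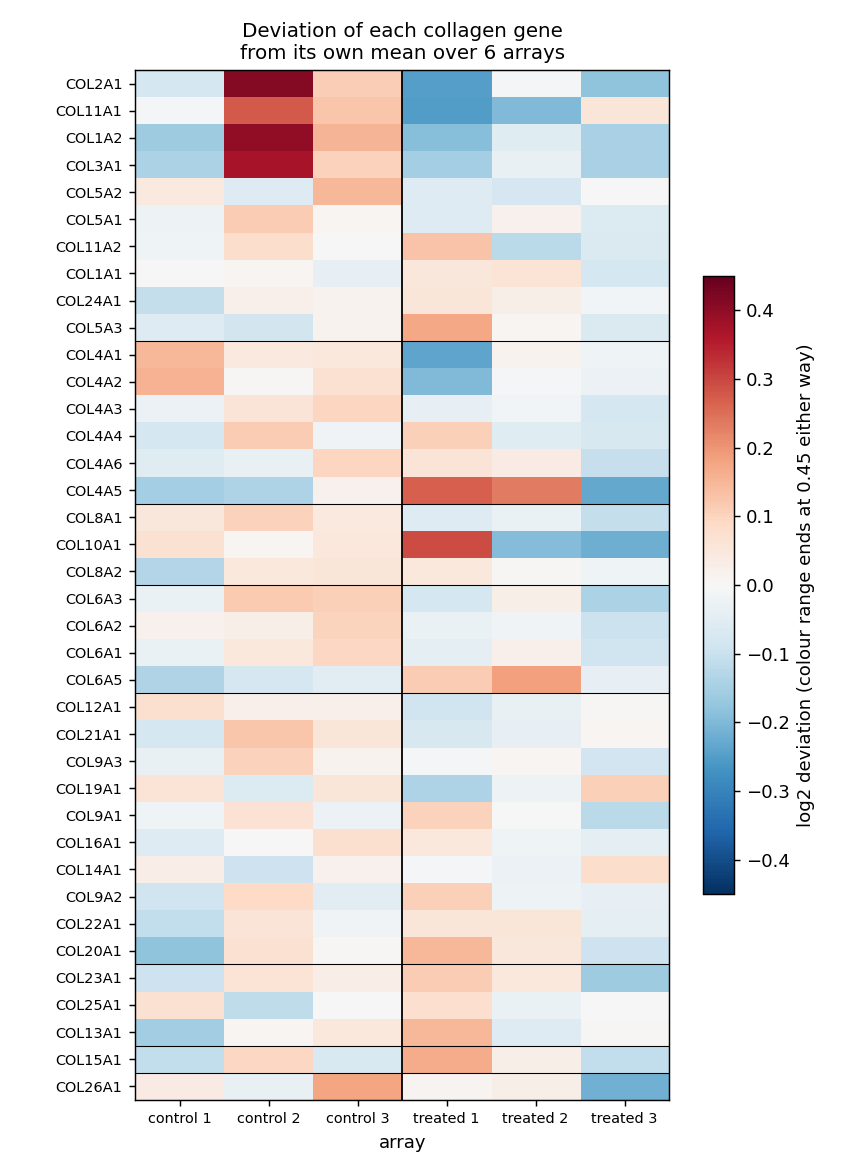
Deviation of each collagen gene's log2 signal from its own mean over the 6 arrays (colour, red above and blue below), with genes in rows by structural class and arrays in columns. The strongest colours are on control array 2 in COL2A1, COL1A2 and COL3A1 (0.37 to 0.41), and most of the genes are below their mean on treated array 3 (32 of 38).

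Across the arrays the family did not split by treatment. The median deviation of the 38 collagens from their own means was -0.03, 0.05 and 0.04 on control arrays 1, 2 and 3, and 0.03, -0.01 and -0.07 on treated arrays 1, 2 and 3. Control array 1 and treated array 3, at the low end, are the arrays that stood highest on the leading component of all probe sets. All genes together had medians of 0.05, -0.03 and 0.02, and -0.04, -0.01 and 0.00. The collagens lay below all genes on control array 1 (by -0.08) and treated array 3 (by -0.07) and above them on the other 4 arrays. On treated array 3, 6 members were above their own mean, against 30 on control array 3. The part of the leading component in the collagen values was not tested. With both of those arrays left out, 22 of 38 members were lower in treated cells (56.4% of all genes), with a median of -0.03. COL11A1, COL1A2 and COL4A5 then had an unadjusted limma p under 0.05 (2.9% of all genes), and 0 passed the adjusted threshold.

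The genes that make, export, trim, bind and degrade collagen gave no call either: 0 of the 84 measured had an adjusted p, or an unadjusted p, under 0.05 in limma, beside 0% of probe sets and 2.07% of genes. With cyclic loess CREB3L1 alone had an unadjusted p under 0.05. As deposited, the groups did not overlap for PCOLCE and SEC24D on the lower side (5.3% of all genes) and P4HA3 on the higher side (2.59%). CEBPB, among the regulators, stood without overlap on the higher side under all 3 other scalings. With cyclic loess (3.38% of all genes) P4HA3 and CREB3L1 did so too, and with median centring (4.88%) ITGA11, PRELP and SP3. With quantile normalization (3.46%) CEBPB was alone. Of 15 genes for chain modification and folding, 11 were lower in treated cells (8, 7 and 7 with quantile normalization, median centring and cyclic loess). Beside this count and those of the lists below, 62.6% of all genes were lower as deposited, and 46.8%, 42.7% and 50.3% under those scalings. The prolyl hydroxylase subunit gene P4HA3 gave 0.14 on a dim probe set, and its groups overlapped with quantile normalization and median centring. PLOD3, a lysyl hydroxylase, gave -0.10. Of 8 export genes 5 were lower, under every scaling. CREB3L1, a transcription factor that drives collagen secretion in bone, read 5.07, 5.20 and 5.28 in control and 5.50, 5.48 and 5.25 in treated cells. Treated arrays 1 and 2 lay above the controls and treated array 3 among them, and the difference was 0.23 (95% interval -0.02 to 0.48). PREB, a factor of coat assembly, gave -0.12, and the coat subunit gene SEC24D -0.09, with groups that overlapped under the 3 other scalings.

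Of 12 genes for propeptide cleavage and crosslinking 8 were lower (5, 6 and 7 with quantile normalization, median centring and cyclic loess). PCOLCE, which speeds removal of the C-terminal propeptide, read 8.37, 8.36 and 8.43 in control and 8.32, 8.31 and 8.11 in treated cells, a difference of -0.14 (95% interval -0.35 to 0.07), and its groups overlapped under the 3 other scalings. LOXL2, a crosslinking oxidase, gave -0.11. Of 11 collagen receptors 7 were lower (3, 4 and 5 under those scalings), among them MRC2, which takes up collagen fragments (-0.15), while the platelet receptor gene GP6 gave 0.18.

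Of 13 fibril-binding proteins 8 were lower (7, 6 and 8), with the small proteoglycan BGN at -0.18 and ASPN, on a dim probe set, at 0.09. Of 8 collagen-degrading proteases 5 were lower (4, 4 and 5), with CTSK, also dim, at -0.11 and the gelatinase MMP2 at -0.10. Of 17 regulators 14 were lower (9, 10 and 10), beside 62.6% of all genes as deposited (46.8%, 42.7% and 50.3%). SMAD4, the shared mediator of TGF-beta signals, gave -0.15 and SOX9, the factor that drives COL2A1 in cartilage, -0.10. The medians of the 7 lists lay between -0.08 and -0.01 as deposited and between -0.04 and 0.04 under the other scalings.

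**Figure D4:**
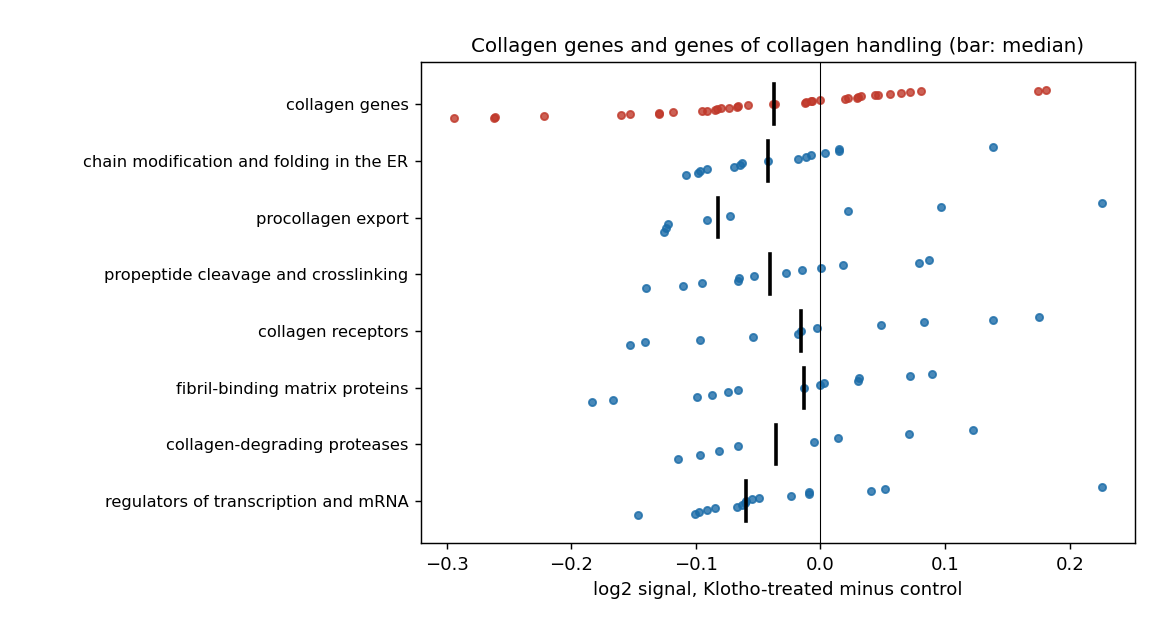
Difference in log2 signal between Klotho-treated and control cells (x axis) for the 38 collagen genes (red) and the measured members of 7 lists of collagen handling (blue), 1 point per gene, with the median as a black bar. The medians lie between -0.08 and -0.01, and the collagens below -0.2 are COL2A1, COL11A1, COL1A2 and COL3A1.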

How the data were processed

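The authors deposited 1 table of log2 signals, 1 value per probe set and array, and per the submitters' processing notes these come from RMA, which corrects background, quantile-normalizes and summarizes probes; its version is not given in the sources used here. Per the labels' protocols, cDNA was amplified from 100 ng of total RNA. Gene names came from the platform's probe annotation: 14432 of 22011 probe sets had 1 symbol, 2408 several and 5171 none, and all 38 collagens matched RefSeq by Entrez number. The test was limma's (version 3.58.1, R version 4.3.3; lmFit, then eBayes; 2-sided) on all probe sets, with Benjamini-Hochberg adjustment over the table, and the fit was tested on simulated data. No detection calls, intensities, scan dates or slides were used. Precision is limited by having 3 arrays per group.

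The members and lists were chosen with earlier results of these data known, so lists have counts and medians and no test. Named genes were collagens with an unadjusted p under 0.05 or with groups that do not overlap and a difference of at least 0.2, a fixed set of chains, the 2 members of smallest p in each class and in each pathway list, and others by range. Alternatives were other scalings, filters, variance models, weighting of arrays, a block for the replicate number, probe-set means per gene, and omission of arrays.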

Additional observations from a re-analysis of the deposited data

How the results depend on the processing

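Under 16 other settings fixed at the outset and 1 chosen after seeing the data (control array 1 and treated array 3 both left out), 0 collagens passed the adjusted threshold in limma. The count of collagens at an unadjusted p under 0.05, which was 0, became 2 with array quality weights (COL11A1 and COL6A5), 1 with only probe sets of 1 symbol in the fit (COL11A1) and 3 with control array 1 and treated array 3 both left out. Leaving out 1 array gave 0 to 4. It was 4 without control array 1 (COL1A2, COL2A1, COL3A1, COL11A1), 3 without treated array 3 (COL4A5, COL6A5, COL11A1) and 1 without treated array 1 (COL10A1). The background moved as well. Of all 22011 probe sets, 703 had an unadjusted limma p under 0.05 as deposited and 1644 with array quality weights. That number was 682 without control array 1, 1200 without treated array 3, 672 without treated array 1 and 1127 with control array 1 and treated array 3 both left out. Among the 14432 probe sets of 1 symbol it was 447. With the replicate number as a block the count of collagens was 1 (COL2A1), beside 662 of all probe sets, with 0 past the adjusted threshold. Deviations from the group mean correlated between same-numbered arrays at r = -0.18, 0.06 and -0.14. With so few arrays per group, these values cannot show whether the numbers pair the samples. The family's median became 0.012 with median centring, from -0.04. Leaving out 1 array moved it between -0.056 (without control array 1) and -0.0091 (without treated array 3). It was -0.022 without control array 2 and -0.026 without treated array 2. The count of lower members moved between 28 (without control array 1) and 20 (without treated array 3). The share of all genes lower was not counted with 1 array left out, so these 2 counts have no background beside them. Of the 84 genes of collagen handling, 0 had an unadjusted limma p under 0.05 as deposited and 2 with array quality weights (CREB3L1 and P4HA3). CREB3L1 alone did with cyclic loess (712 of all probe sets), without treated array 3, and with control array 1 left out too. The probe-set counts for the other settings are those given above. No sign change of a named gene was past an unadjusted p of 0.05. The filter on dim probe sets left 31 members. The cause of these shifts was not tested.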

Other observations

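The order of the arrays seen in COL1A2 (control array 2 highest, then control array 3, treated arrays 2 and 3, control array 1 and treated array 1) was shared by 27 of the 14232 genes, COL1A2 among them, and 6 of these spanned at least 0.4 on the log2 scale. The other 5 were HTATSF1, a transcription elongation factor, which spanned 1.84, from 5.76 on treated array 1 to 7.60 on control array 2, the splicing factor SF3B2 (0.73), the repressor SPEN (0.52), the chemokine receptor CXCR5 (0.47) and the DNA demethylase TET3 (0.41). The order of COL2A1 and COL3A1 was shared by 17 genes, of which 3 spanned that much, the third being MEPE, a bone matrix phosphoprotein, on a dim probe set (2.59 to 3.07). The orders were looked up after the collagen values had been seen, and nothing about shared control follows from them. The order of COL4A1 was held by 58 genes and that of COL4A5 by 38, of which 12 and 17 spanned at least 0.4.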
